A study of Mus musculus with 8 samples.

Results

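The 10 imprinted fetal growth genes Igf2, H19, Dlk1, Meg3, Peg3, Cdkn1c, Grb10, Peg10, Mest and Plagl1 were followed in embryonic skin in which the retinoic acid-degrading enzyme Cyp26b1 was removed. They were found by gene symbol among 21882 symbols in each of 3 deposited tables, and their transcripts were summed per symbol. RNA came from skin of C57BL/6 embryos. At embryonic day 16.5 (E16.5), 2 libraries of whole skin labelled Cyp26b1-/- were set against 2 of wild-type (WT) skin. At E18.5, 1 library labelled En1cre;Cyp26b1f/- was set against 1 labelled Cyp26b1f/+ in dermis, and likewise in epidermis. The sample numbers in the labels differ between the tissues, with 7 (mutant) and 1 (control) for dermis and 9 (mutant) and 6 (control) for epidermis. The Engrailed 1 promoter drives the Cre of En1cre, which acts in the Engrailed 1 lineage, including cells of the trunk dermis. The E18.5 mutant also carries a null allele in all its cells, where the control carries a wild-type allele, and the labels do not say whether the control has the Cre. These differences cannot be told apart. The levels of Cyp26b1 itself are the whole-transcript sums and do not check the genotype, since the deleted exons are not given: it had 58.2 FPKM in Cyp26b1-/- skin against 35.0 FPKM in WT skin, 102 FPKM in mutant dermis against 54.2 FPKM in control dermis, and 13.7 FPKM in mutant epidermis against 4.97 FPKM in control epidermis. Directions therefore rest on the labels.

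An imprinted gene is transcribed mainly from the copy inherited from a given parent, a state kept by DNA methylation at a control region set in the germ line. Igf2, Dlk1, Peg3, Peg10, Mest and Plagl1 are expressed from the paternal copy, and H19, Meg3, Cdkn1c and, in most tissues, Grb10 from the maternal copy. Many of these genes are high in fetal mesenchyme and muscle and decline as growth slows. Igf2 is a fetal growth factor, and Grb10 and Cdkn1c restrain growth, by inhibiting insulin and insulin-like growth factor receptors and cyclin-dependent kinases. Reciprocally imprinted neighbours share control elements, as Igf2 and H19 do, and as Dlk1 and Meg3 do.

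In the mouse genome (build mm9, GENCODE annotation), H19 lies on chromosome 7 at 149761434 to 149764048 and Igf2 at 149836673 to 149852721, both on the minus strand. Cdkn1c lies farther along the same chromosome at 150644255 to 150646955, and Peg3 near its other end at 6656603 to 6683132, both also on the minus strand. Dlk1 lies on chromosome 12 at 110691033 to 110701546, and Meg3 follows it at 110779211 to 110809936, both on the plus strand. Peg10 (4697306 to 4710514) and Mest (30673547 to 30698457) are on the plus strand of chromosome 6, Grb10 (11830511 to 11938686) on the minus strand of chromosome 11, and Plagl1 (12810497 to 12851500) on the plus strand of chromosome 10. Antisense genes overlap Igf2 (Igf2as), Meg3 (Gm17639) and Mest (Copg2). Whether the counting used strand is not given in the sources used here, so reads from these overlaps cannot be told apart.

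Promoters are shown for the members that differed at least 2-fold relative to the median gene in an E18.5 tissue, namely Peg3, Meg3, Dlk1, Mest and Grb10. Each run is 300 bases, from 250 before to 50 after a RefSeq start (table build GRCm38.p6), and matched mm9 exactly at 1 place. The mm9 positions are chr7:6683081-6683380 for Peg3 and chr11:11937374-11937673 for Grb10, both minus strand, and chr12:110778956-110779255 for Meg3, chr12:110690783-110691082 for Dlk1 and chr6:30687800-30688099 for Mest, all plus strand. Capitals mark TGACGTCA, the cyclic AMP response element, and TGCCGC or its reverse complement GCGGCA, the hexamer bound by ZFP57, which protects imprinted methylation.
Peg3: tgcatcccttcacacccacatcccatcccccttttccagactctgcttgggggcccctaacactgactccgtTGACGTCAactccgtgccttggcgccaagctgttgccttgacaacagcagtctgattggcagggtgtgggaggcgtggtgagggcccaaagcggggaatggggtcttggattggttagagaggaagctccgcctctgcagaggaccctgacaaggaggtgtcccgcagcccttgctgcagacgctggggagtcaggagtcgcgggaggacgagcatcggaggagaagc
Meg3: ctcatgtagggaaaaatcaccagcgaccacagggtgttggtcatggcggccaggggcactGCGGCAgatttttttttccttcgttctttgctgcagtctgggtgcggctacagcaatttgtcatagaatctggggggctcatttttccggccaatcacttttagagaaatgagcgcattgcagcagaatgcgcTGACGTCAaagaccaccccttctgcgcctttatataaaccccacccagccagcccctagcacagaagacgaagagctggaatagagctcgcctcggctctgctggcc
Dlk1: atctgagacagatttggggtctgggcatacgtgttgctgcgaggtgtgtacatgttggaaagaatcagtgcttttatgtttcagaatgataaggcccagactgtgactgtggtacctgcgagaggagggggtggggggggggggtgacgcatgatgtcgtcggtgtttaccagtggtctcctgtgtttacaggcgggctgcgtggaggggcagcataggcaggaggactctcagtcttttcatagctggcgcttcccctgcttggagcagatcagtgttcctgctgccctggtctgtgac
Mest: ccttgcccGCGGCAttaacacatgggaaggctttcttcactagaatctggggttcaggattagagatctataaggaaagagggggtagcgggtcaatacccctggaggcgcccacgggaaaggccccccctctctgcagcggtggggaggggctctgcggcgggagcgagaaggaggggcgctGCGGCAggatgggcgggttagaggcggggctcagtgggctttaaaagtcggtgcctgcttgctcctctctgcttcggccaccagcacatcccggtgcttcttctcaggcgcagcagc
Grb10: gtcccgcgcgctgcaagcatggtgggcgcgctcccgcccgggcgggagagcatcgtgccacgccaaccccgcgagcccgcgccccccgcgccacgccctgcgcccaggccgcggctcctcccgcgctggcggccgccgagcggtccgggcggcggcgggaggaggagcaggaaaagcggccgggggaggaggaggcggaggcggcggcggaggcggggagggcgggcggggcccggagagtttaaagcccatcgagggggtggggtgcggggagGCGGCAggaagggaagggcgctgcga

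Among 14 promoters of 7 members in the RefSeq table, TGACGTCA was found in 2 (Peg3 and Meg3), against 1.79% of 32851 mouse promoters of the same length. The ZFP57 hexamer was found in 6 of the 14, against 11.6% of all promoters, and 2 of the 6 are overlapping windows at neighbouring Mest starts. The share of G and C bases in the 6 ran from 49.7% (Igf2) to 80.0% (Grb10), against a median of 52.7% over all promoters. The shares of motifs were not matched for base content. The retinoic acid receptor half-site AGGTCA, searched on both strands like the others, was found in 2 of the 14 (in other starts of Igf2 and Meg3, not printed), against 16.3% of all promoters. The motifs were chosen with these promoters in view, and a match is a run of letters, not a bound site. H19, Cdkn1c and Peg10 had no entry.

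Levels are given in FPKM, which corrects fragment counts for transcript length and for the size of the library and so allows genes to be compared within a table. The 3 tables were normalised separately, and each group has 1 value, pooled from 2 libraries at E16.5 and from 1 library at E18.5. No spread between animals can therefore be given for any value, neighbours in an order of levels cannot be tested, and read depth is unknown. In these bulk samples, fewer cells of a type and less RNA per cell cannot be told apart. Differences are log2((mutant FPKM + 1)/(control FPKM + 1)), which understates the change of low genes, minus the median of all genes that reached 1 FPKM in the mutant or the control. That median was 0.43 in E16.5 skin, 0.12 in dermis and -0.18 in epidermis.

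H19, a noncoding RNA, was the most abundant measured member in every group. It had 3862 FPKM in Cyp26b1-/- skin and 2309.5 FPKM in WT skin, 4666 FPKM in mutant dermis and 2476 FPKM in control dermis, and 613 FPKM in mutant epidermis and 568 FPKM in control epidermis. In the mutant dermis library it was the gene of rank 6 by FPKM among symbols with a usable value, and in the control library of rank 30. At E18.5 Igf2 was next to H19 in epidermis, with 138 FPKM in the mutant and 141 FPKM in the control, and stood at 1078 FPKM in mutant dermis and 527 FPKM in control dermis. The other 8 members were all below 30 FPKM in epidermis. Plagl1, a zinc finger transcription factor that regulates other imprinted genes, was the highest of them, with 21.9 FPKM in mutant and 26.8 FPKM in control epidermis. Peg10, a retrotransposon-derived gene needed in the mouse placenta, was the lowest member in dermis and epidermis, with 3.55 FPKM in mutant dermis against 1.59 FPKM in control dermis, and 0.02 FPKM in mutant epidermis against 0.07 FPKM in control epidermis. It did not reach 1 FPKM in epidermis, so its difference there is not used.

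**Figure D1:**
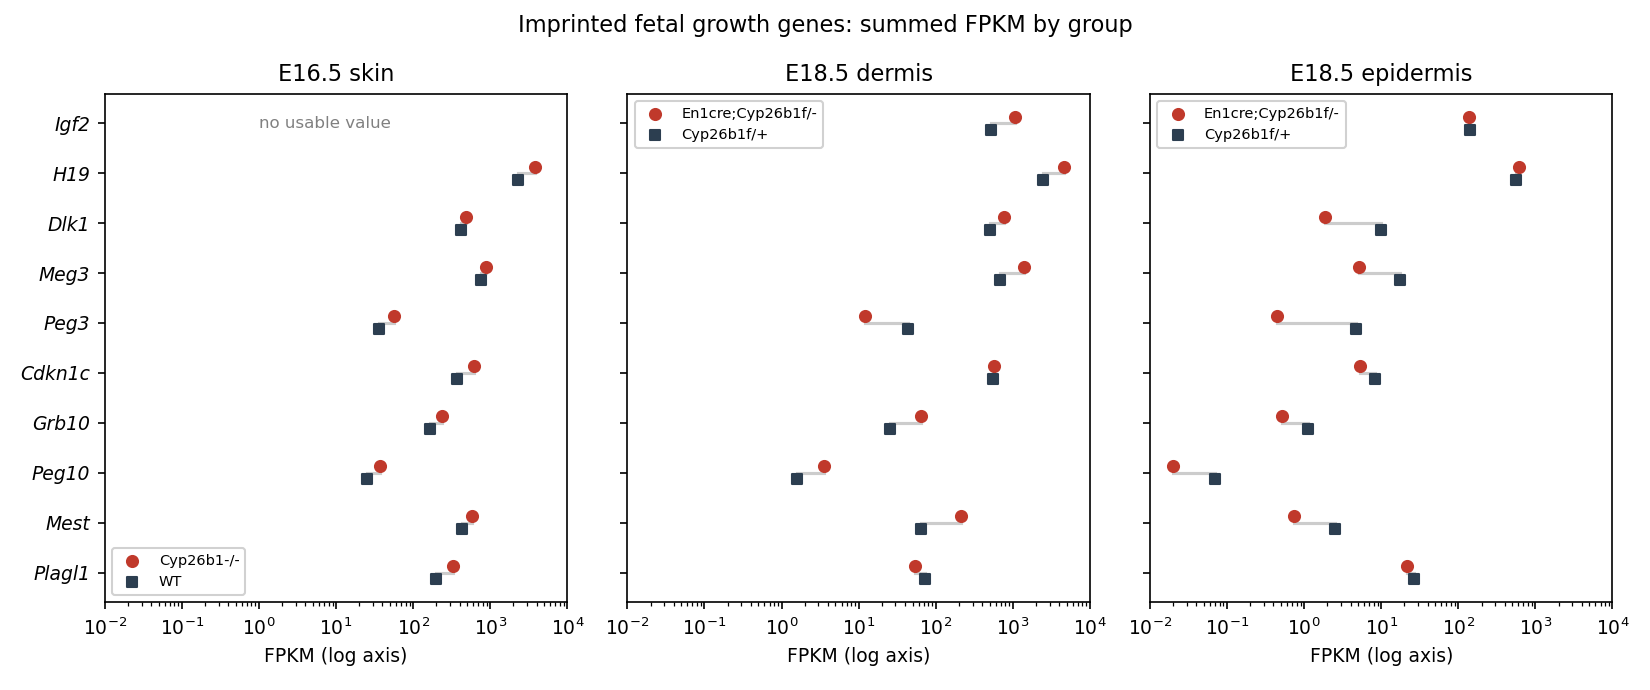
FPKM of each member (log axis) in the mutant (red circles) and control (dark squares) of each table, with 1 value per group. H19 lies farthest right in each panel, at 3862 and 2309.5 FPKM in E16.5 skin, and in epidermis only H19, Igf2 and Plagl1 exceed 20 FPKM in both libraries.

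In E16.5 skin, 9 of the 10 members had usable rows, and their differences from the median gene were small, from -0.21 to 0.31. All 3 Igf2 transcripts had a failed estimate at this age, so Igf2 is not reported there. The deposited statistic was recomputed after subtracting the median fold and adjusted by Benjamini-Hochberg over all tested transcripts. By it, 1 of the 9 was called higher (8.24% of all 16303 tested genes were) and 0 lower (10% of all were). At an unadjusted p under 0.05 the counts were 1 higher and 1 lower (Meg3). The share of all genes at that threshold was not computed, here or for the lists below. The Meg3 count rests on its minor transcript NR_027651. That transcript had 9.03 FPKM in Cyp26b1-/- skin and 8.25 FPKM in WT skin (-0.345 after the median was subtracted, implied SE 0.14). The main Meg3 transcript NR_027652 did not pass (-0.27, implied SE 0.19). The authors' own Cuffdiff calls at q below 0.05 were 8 higher and 0 lower, where 54.6% of all genes were called higher and 3.46% lower. At a 2-fold difference the counts were 0 and 0, where 1.71% of all genes were higher and 2.86% lower. Their median difference was 0.13, and the middle of all genes spanned -0.20 to 0.17 between the quartiles.

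Grb10, the receptor adaptor, was the member called higher, through 1 of its 2 transcripts. Its transcript NM_001177629 had 67.0 FPKM in Cyp26b1-/- skin and 37.0 FPKM in WT skin, with a log2 fold of 0.85 in the authors' deposited table, 0.38 after the median was subtracted (implied SE 0.14, adjusted p = 0.0427 by the recomputed Cuffdiff statistic). The more abundant Grb10 transcript NM_010345 had 168 FPKM in Cyp26b1-/- skin and 129 FPKM in WT skin and did not pass (-0.09, implied SE 0.16). The call was lost when centring used transcripts of at least 10 FPKM, at an adjusted p of 0.01, or with the most abundant transcript alone. Over the gene, Grb10 had 235 FPKM in Cyp26b1-/- skin and 166 FPKM in WT skin, a difference of 0.07 from the median gene.

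Dlk1 encodes a membrane protein with EGF-like repeats that restrains adipocyte differentiation, and its transcripts moved in both directions, so the gene carries no call. The minor transcript NM_001190705 rose, with 40.4 FPKM in Cyp26b1-/- skin and 22.2 FPKM in WT skin (log2 fold 0.86 in the authors' deposited table, 0.38 after the median was subtracted, adjusted p = 0.0426 by the recomputed Cuffdiff statistic). The noncoding NR_033813 fell, with 4.50 FPKM in Cyp26b1-/- skin and 5.51 FPKM in WT skin (log2 fold -0.29 in the authors' deposited table, -0.77 after the median was subtracted, adjusted p = 0.00136 by the recomputed Cuffdiff statistic). The transcript NM_010052, which held most of the gene's FPKM, had 424 FPKM in Cyp26b1-/- skin and 369 FPKM in WT skin and did not pass (-0.27, implied SE 0.21). Such splits rest on how reads were shared among overlapping transcripts.

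The other members did not pass the recomputed test in E16.5 skin. Meg3, the maternally expressed noncoding RNA next to Dlk1, had 883 FPKM in Cyp26b1-/- skin and 758 FPKM in WT skin, a difference of -0.21. Cdkn1c, the cyclin-dependent kinase inhibitor, had 611 FPKM in Cyp26b1-/- skin and 372 FPKM in WT skin (0.29). Plagl1 had 327 FPKM in Cyp26b1-/- skin and 197 FPKM in WT skin (0.30), and H19 differed by 0.31. Mest, which encodes a membrane protein of the alpha/beta hydrolase fold family, had 579.7 FPKM in Cyp26b1-/- skin and 433 FPKM in WT skin (-0.01). Peg3, a zinc finger gene, had 56.5 FPKM in Cyp26b1-/- skin and 36.2 FPKM in WT skin (0.20), and Peg10 had 37.5 FPKM in Cyp26b1-/- skin and 25.1 FPKM in WT skin (0.13). Before the median was subtracted every one of these values was higher in Cyp26b1-/- skin, which turns the sign for Mest (0.42), Dlk1 (0.24) and Meg3 (0.22).

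**Figure D2:**
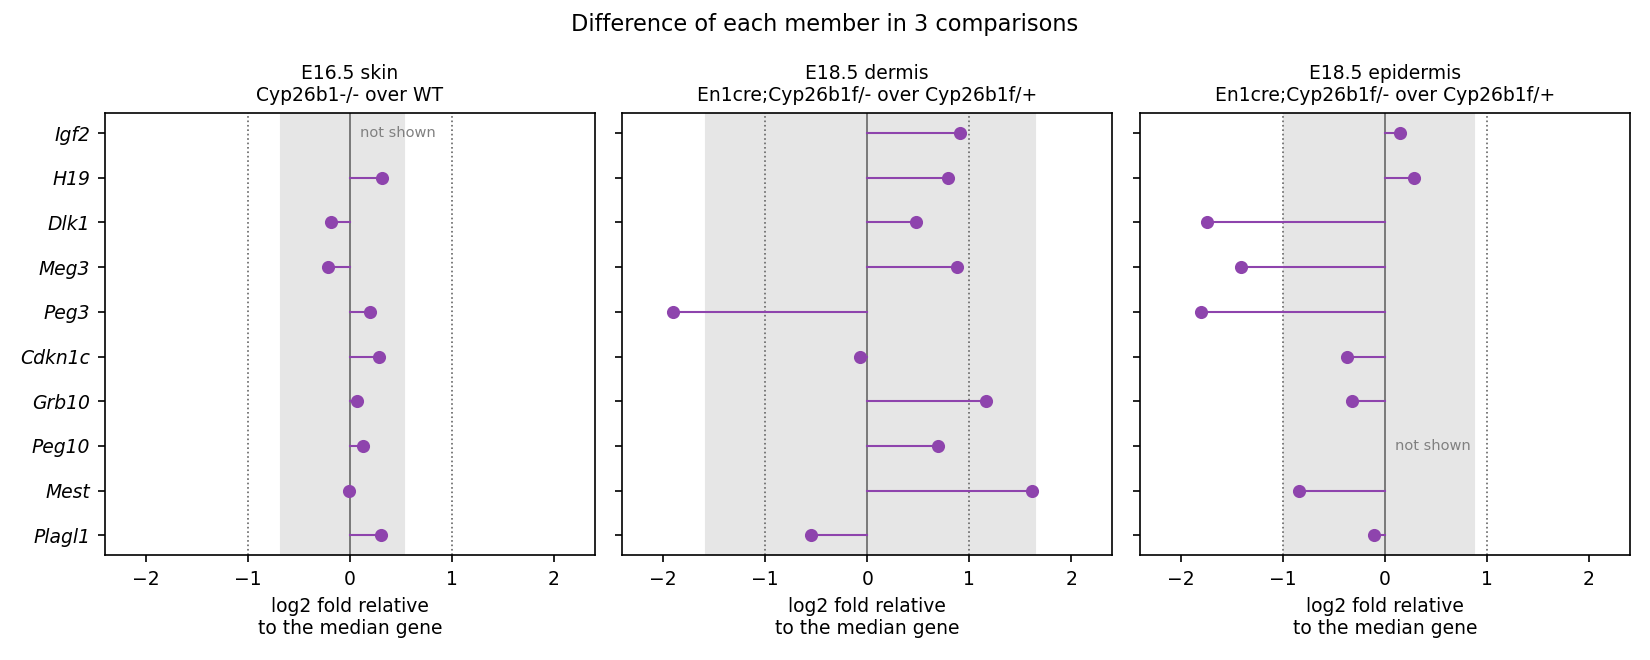
Log2 fold of each member, mutant over control, relative to the median gene (line at 0), with 2-fold marked by dotted lines and the range of 90% of all genes in grey. All points lie within the grey range in E16.5 skin, Peg3 lies below it in both E18.5 tissues, and Dlk1 and Meg3 lie below it in epidermis.

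In E18.5 dermis most members had more FPKM in the En1cre;Cyp26b1f/- library, and Peg3 had less. Relative to the median gene, 7 of 10 were above 0 and 3 below, with a median of 0.74. At the 2-fold level 2 were higher, Mest and Grb10, where 14.0% of all 13427 genes were, and 1 was lower, Peg3, where 13.9% were. With 1 library per group there is no test, and 27.9% of all genes passed 2-fold in some direction.

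Mest had 216 FPKM in mutant dermis and 63.9 FPKM in control dermis, a difference of 1.62. Grb10 had 63.8 FPKM in mutant dermis and 25.6 FPKM in control dermis, a difference of 1.17, with NM_010345 holding all of it in the control and its transcript NM_001177629 listed at 0 there. Igf2 differed by 0.91, and its 3 transcripts did so unequally. NM_001122737 had 321 FPKM in mutant dermis and 96.5 FPKM in control dermis, and NM_010514 had 674 FPKM in mutant dermis and 328 FPKM in control dermis. NM_001122736 had 82.5 FPKM in mutant dermis and 103 FPKM in control dermis, so it was the Igf2 transcript lower in the mutant library.

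The reciprocally imprinted partners were both higher in mutant dermis. H19 differed by 0.79, close to Igf2, and the ratio of H19 to Igf2 was 4.33 in mutant dermis and 4.70 in control dermis. Meg3 had 1376.5 FPKM in mutant dermis and 688 FPKM in control dermis (0.88), and Dlk1 had 779 FPKM in mutant dermis and 513 FPKM in control dermis (0.48). The ratio of Meg3 to Dlk1 was 1.77 in mutant dermis and 1.34 in control dermis, and 1.82 in Cyp26b1-/- skin against 1.84 in WT skin. The minor Meg3 transcript NR_027651 had 12.3 FPKM in mutant dermis and 1.54 FPKM in control dermis.

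Rian, Mirg and Rtl1 of the Dlk1-Meg3 cluster had larger differences in dermis than Dlk1 or Meg3. Rian, a noncoding RNA downstream of Meg3, had 146 FPKM in mutant dermis and 21.7 FPKM in control dermis (2.58), and Mirg, a microRNA host transcript, had 67.9 FPKM in mutant dermis and 10.4 FPKM in control dermis (2.47). Rtl1, a paternally expressed retrotransposon-derived gene, had 13 FPKM in mutant dermis and 3.25 FPKM in control dermis (1.59). In E16.5 skin the same genes differed by -0.16, -0.07 and -0.14. Sgce, the paternally expressed neighbour of Peg10, had 30.0 FPKM in mutant dermis and 4.09 FPKM in control dermis (2.49). Peg10 itself differed by 0.69, at 3.55 FPKM in mutant and 1.59 FPKM in control dermis. Its plain ratio of mutant to control FPKM, without the added 1 FPKM, was 2.23. Copg2, which overlaps Mest on the opposite strand, had 7.54 FPKM in mutant dermis and 4.23 FPKM in control dermis (0.59).

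Peg3 was the member lower at the 2-fold level, with 12.2 FPKM in mutant dermis and 44.1 FPKM in control dermis (-1.90), below all but 2.73% of genes. Zim1, the maternally expressed gene of the same cluster, had 2.19 FPKM in mutant dermis and 1.47 FPKM in control dermis (0.25). Phlda2, a maternally expressed neighbour of Cdkn1c that restrains placental growth, had 1.11 FPKM in mutant dermis and 7.20 FPKM in control dermis (-2.08). Plagl1 had 53.6 FPKM in mutant dermis and 72.7 FPKM in control dermis (-0.55). Cdkn1c had 573 FPKM in mutant dermis and 555 FPKM in control dermis (-0.08). Its transcript NM_001161624 had 135 FPKM in mutant dermis and 89.8 FPKM in control dermis, and NM_009876 had 438 FPKM in mutant dermis and 466 FPKM in control dermis.

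**Figure D3:**
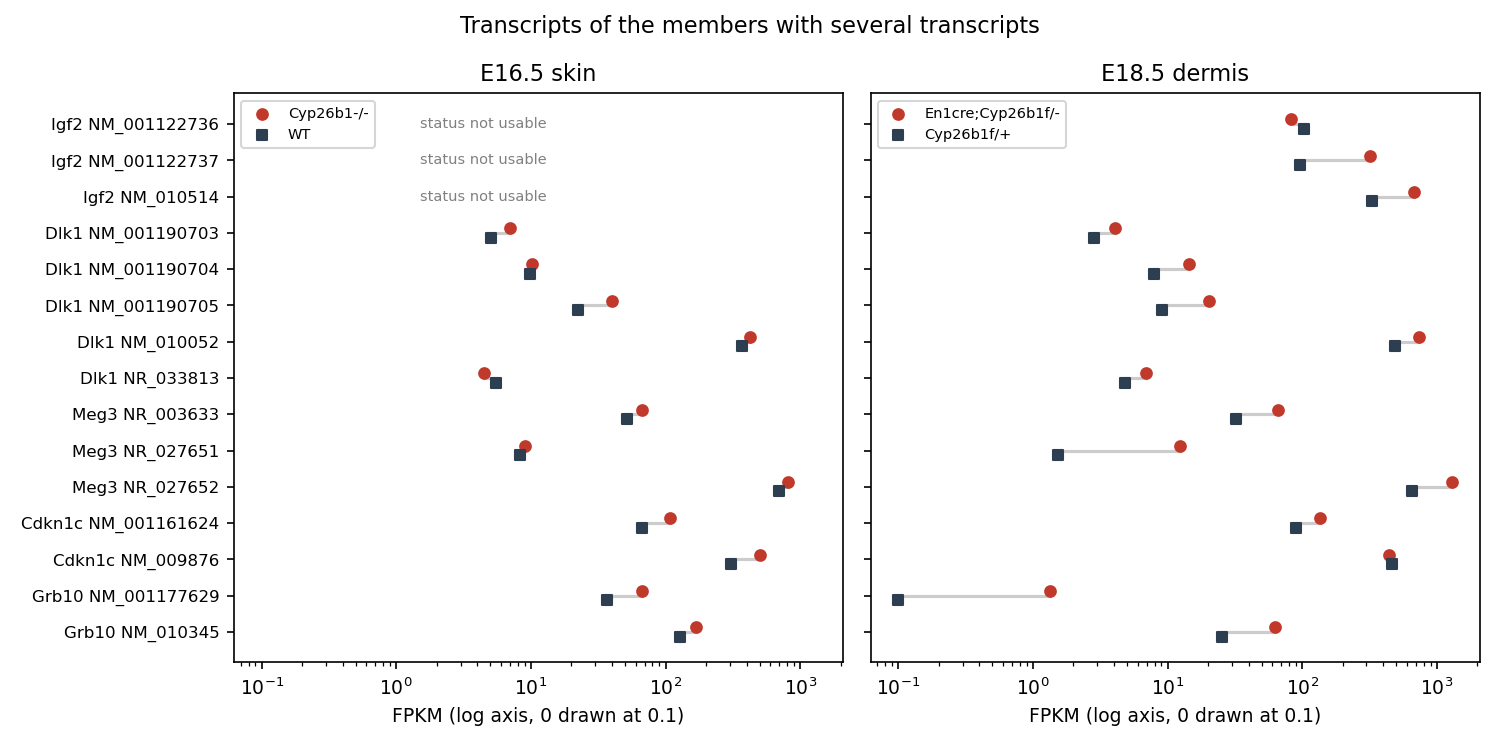
FPKM (log axis, 0 drawn at 0.1) of each RefSeq transcript of the members with several transcripts, in the mutant (red circles) and control (dark squares) of E16.5 skin and E18.5 dermis. In dermis NM_001122736 and NM_009876 lie lower in the mutant library, and Grb10 NM_001177629 is listed at 0 in the control.

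The 2 dermis libraries differed in their levels of cell type markers. Of 12 keratinocyte markers 10 were at least 2-fold lower in mutant dermis and 0 higher, with a summed level of 4839.7 FPKM in the mutant and 15775 FPKM in the control, so both libraries labelled dermis held keratinocyte RNA. Of 9 usable dermal fibroblast markers (Col1a1, Col1a2 and Col3a1 had unusable rows), 4 were at least 2-fold higher and 0 lower, with a sum of 3494 FPKM in the mutant and 1737.5 FPKM in the control and a median difference of 0.96. Of 13 skeletal muscle markers 10 reached 1 FPKM and 7 were 2-fold higher, with sums of 5223 FPKM in mutant and 1617 FPKM in control dermis. Of 6 endothelial markers 5 were 2-fold higher (sums 232 FPKM in mutant and 80.8 FPKM in control dermis), and so were 5 of 5 macrophage markers (sums 152 FPKM in mutant and 38.2 FPKM in control dermis). No marker of these lists was at 0. The other marker lists went both ways in dermis. Medians were -3.74 for adipocyte (2 of 7 at least 2-fold higher, 4 lower), -0.50 for cartilage and bone and -0.44 for melanocyte markers. They were 1.27 for erythroid (3 of 6 genes at 1 FPKM), 0.88 for Schwann cell and 0.88 for lens markers (2 of 6 genes at 1 FPKM). The summed erythroid level went the other way, with 6917 FPKM in mutant and 11681 FPKM in control dermis, and Hba-a1 was at -0.88. The part of all these markers in the members' differences was not tested. Relative to the median fibroblast marker, a scale chosen after the data were seen, 0 members were 2-fold higher (2.86% of all genes were) and 3 were lower, Peg3, Plagl1 and Cdkn1c (48.0% of all genes were), with Mest at 0.66 and Grb10 at 0.21. On that scale the sign turned for Dlk1 (-0.47), Peg10 (-0.26), H19 (-0.16), Meg3 (-0.08) and Igf2 (-0.05) in dermis.

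**Figure D4:**
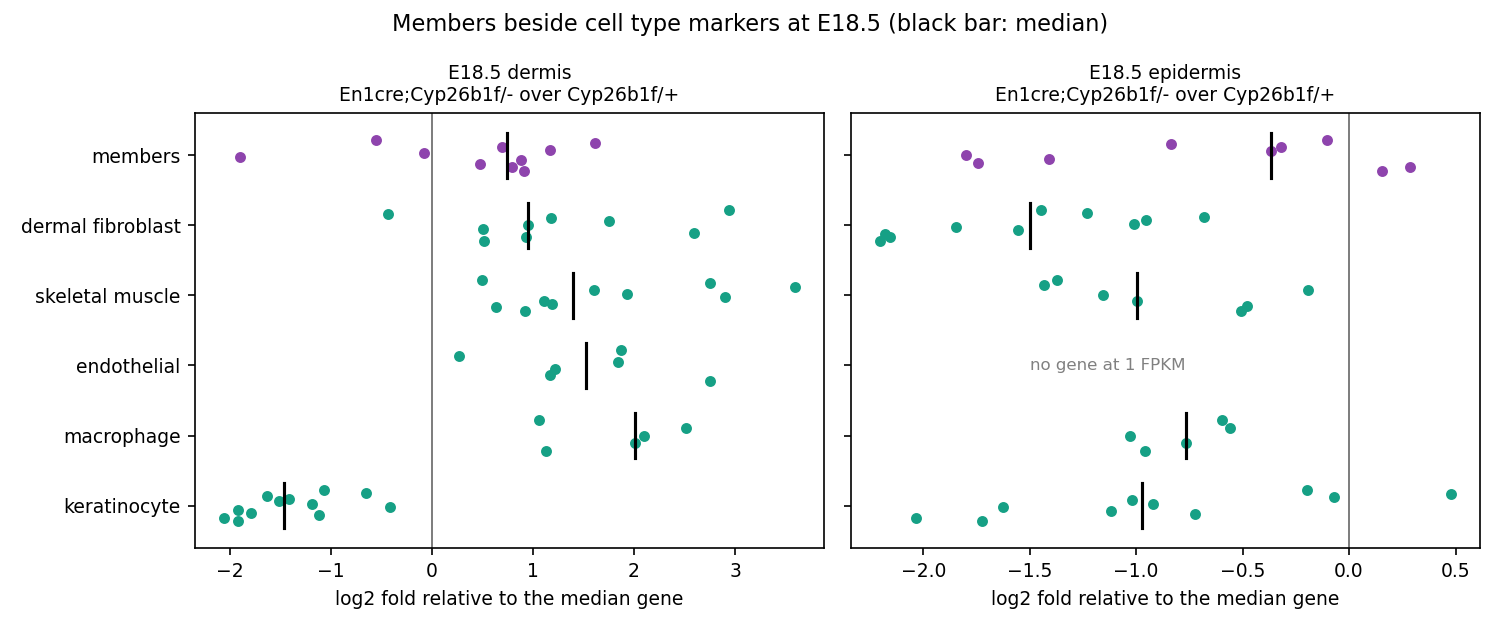
Log2 fold, mutant over control, relative to the median gene, of the members (purple) and of marker genes of 5 cell types (green) with at least 1 FPKM at E18.5, with each list's median as a black bar. In dermis the member median of 0.74 lies near the fibroblast median of 0.96, and in epidermis the fibroblast median of -1.5 lies below the member median of -0.37.

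In E18.5 epidermis Dlk1, Meg3 and Peg3 were lower in the En1cre;Cyp26b1f/- library, and H19 and Igf2 stood near the median gene. Of 9 members with at least 1 FPKM, 3 were 2-fold lower, where 4.86% of 11387 genes were, and 0 were 2-fold higher, where 3.51% were. In all, 8.37% of genes passed 2-fold in some direction there, and there is no test. Peg3 had 0.45 FPKM in mutant epidermis and 4.72 FPKM in control epidermis (-1.80), so it reached 1 FPKM only in the control. Dlk1 had 1.87 FPKM in mutant epidermis and 9.87 FPKM in control epidermis (-1.74). Meg3 had 5.11 FPKM in mutant epidermis and 17.4 FPKM in control epidermis (-1.41). Each of these lies among the lowest 1.84% of genes by difference.

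With 1 FPKM added and the median subtracted, the remaining members that reached 1 FPKM were within 2-fold in epidermis. The plain ratios of mutant to control FPKM passed 2-fold for Mest (0.29) and Grb10 (0.45), both at low levels that reached 1 FPKM only in the control. H19 differed by 0.29 and Igf2 by 0.15, and the ratio of H19 to Igf2 was 4.43 in the mutant and 4.04 in the control. The Igf2 transcripts again diverged, with NM_001122737 at 11.6 FPKM in mutant and 27.5 FPKM in control epidermis, and NM_010514 at 106 FPKM in mutant and 88.6 FPKM in control epidermis. Mest had 0.73 FPKM in mutant epidermis and 2.50 FPKM in control epidermis (-0.84), and Grb10 had 0.51 FPKM in mutant and 1.13 FPKM in control epidermis (-0.32). Cdkn1c had 5.35 FPKM in mutant and 8.28 FPKM in control epidermis (-0.37), and Plagl1 differed by -0.11.

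Dermal fibroblast markers were lower in the same mutant epidermis library. Of 12 such markers 10 reached 1 FPKM and 8 were at least 2-fold lower, with sums of 82.0 FPKM in mutant and 391 FPKM in control epidermis and a median difference of -1.5. Col1a1 had 27.7 FPKM in mutant and 149 FPKM in control epidermis (-2.20), and no fibroblast marker was at 0. Of 10 usable keratinocyte markers 5 were also 2-fold lower, among them the basal keratins Krt5 (704 FPKM in mutant, 2634 FPKM in control) and Krt14 (322 FPKM in mutant, 1496 FPKM in control). Skeletal muscle markers summed to 44.7 FPKM in mutant and 79.8 FPKM in control epidermis, with 4 of 13 at 0 in the mutant. The part of these markers in the members' differences was not tested. Relative to the median fibroblast marker, Dlk1, Meg3 and Peg3 were at -0.24, 0.09 and -0.30 in epidermis, 0 members were 2-fold lower (0.342% of all genes were) and 5 were higher (82.1% of all genes were). The sign also turned there for Plagl1 (1.40), Grb10 (1.18), Cdkn1c (1.13) and Mest (0.66). The epidermis median includes Col1a1, Col1a2 and Col3a1, which the dermis median lacks, so this scale differs between the tissues.

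The insulin-like growth factor pathway was followed from a list of 22 genes, of which 18 reached 1 FPKM in E16.5 skin, with a median difference of 0.01. Of 21 tested there, 2 rose and 2 fell by the recomputed statistic, against 11 higher and 0 lower by the q of the authors' deposited table, which is not centred. Of all tested genes, 8.24% rose and 10% fell by the recomputed statistic, and 54.6% were higher and 3.46% lower by the authors' q. These shares also stand beside the E16.5 counts of the lists below. Igf1, the postnatal counterpart of Igf2, rose, with 31.8 FPKM in Cyp26b1-/- skin and 14.8 FPKM in WT skin (0.63). Irs2, a receptor substrate, fell, with 6.61 FPKM in Cyp26b1-/- skin and 8.36 FPKM in WT skin (-0.73), and so did the binding protein gene Igfbp2, with 92.4 FPKM in Cyp26b1-/- skin and 104 FPKM in WT skin (-0.60). Igf2bp2, an RNA-binding protein gene, was the other that rose, with 79.6 FPKM in Cyp26b1-/- skin and 44.3 FPKM in WT skin (0.40). The receptor genes Igf1r (13.5 FPKM in Cyp26b1-/- skin, 9.95 FPKM in WT skin), Insr (11.8 FPKM in Cyp26b1-/- skin, 8.30 FPKM in WT skin) and Igf2r (69.3 FPKM in Cyp26b1-/- skin, 48.1 FPKM in WT skin) were not called, at -0.02, 0.03 and 0.09.

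In dermis 4 pathway genes were 2-fold higher and 4 lower, with a median of 0.05 over 20 genes. Of all genes, 14.0% were higher and 13.9% lower, shares that also stand beside the dermis counts of the lists below. Relative to the median fibroblast marker 0 were higher (2.86% of all genes were) and 9 lower (48.0% of all were), with a median of -0.91. Igf2r, which clears Igf2 and is itself maternally expressed, had 49.0 FPKM in mutant dermis and 17.0 FPKM in control dermis (1.35), and Igf1 had 11.1 FPKM in mutant and 5.09 FPKM in control dermis (0.86). Igf1r had 7.68 FPKM in mutant and 6.64 FPKM in control dermis (0.06), and Insr had 1.40 FPKM in mutant and 2.07 FPKM in control dermis (-0.48). Igfbp3, a binding protein gene, had 242 FPKM in mutant and 58.7 FPKM in control dermis (1.90). The receptor substrates Irs1 and Irs2 were lower, with 3.31 FPKM in mutant and 13.1 FPKM in control dermis (-1.84) and 5.09 FPKM in mutant and 19.9 FPKM in control dermis (-1.90). In epidermis 0 pathway genes were 2-fold higher and 1 lower, Igfbp3, with 1.75 FPKM in mutant and 5.67 FPKM in control epidermis (-1.10), and the median over 14 genes was -0.61. Of all genes, 3.51% were higher and 4.86% lower in epidermis, which also stands beside the epidermis counts of the lists below. Igfbp5 had 2.14 FPKM in mutant and 5.86 FPKM in control epidermis (-0.95), and Irs1 had 3.76 FPKM in mutant and 9.76 FPKM in control epidermis (-1). The receptors Igf1r, Insr and Igf2r differed by 0.48, -0.84 and 0.18 in epidermis, and Igf1 did not reach 1 FPKM.

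Further imprinted genes were read from lists of 27 paternally and 29 maternally expressed genes. The lists class whole genes, though imprinting can differ among tissues and among transcripts of a gene such as Gnas. The parental copy was not measured here. In E16.5 skin 1 rose and 2 fell of 22 tested paternally expressed genes, and 2 rose and 3 fell of 28 tested maternally expressed genes, with medians of -0.12 and -0.07. By the q of the authors' deposited table the counts were 9 higher and 0 lower of the paternally expressed genes, and 16 higher and 1 lower of the maternally expressed genes. Magel2 fell, with 7.01 FPKM in Cyp26b1-/- skin and 7.54 FPKM in WT skin (-0.52), and so did Dhcr7, the last enzyme of cholesterol synthesis, with 38.7 FPKM in Cyp26b1-/- skin and 58.3 FPKM in WT skin (-1.01), and Cobl, an actin nucleator, with 29.1 FPKM in Cyp26b1-/- skin and 35.5 FPKM in WT skin (-0.70). Ndn (-0.24), the amino acid transporter gene Slc38a4 (0.27) and Copg2 (0.38) were not called.

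In dermis 3 of 16 paternally expressed genes with at least 1 FPKM were 2-fold higher and 0 lower, with a median of 0.55, and of 23 maternally expressed genes 5 were higher and 3 lower, with a median of 0.49. Besides Sgce, Rtl1, Rian and Mirg, these included Airn, the noncoding RNA antisense to Igf2r, with 7.72 FPKM in mutant and 0.37 FPKM in control dermis (2.55), and the matrix proteoglycan Dcn, with 358 FPKM in mutant and 53.8 FPKM in control dermis (2.59). Dcn also stands in the fibroblast marker list. In epidermis 0 of 8 paternally and 2 of 16 maternally expressed genes were 2-fold lower and 0 higher in both lists, with medians of -0.31 and -0.06. Dcn had 1.78 FPKM in mutant and 5.34 FPKM in control epidermis (-1.01). Gnas, which encodes a G protein subunit, had 259 FPKM in mutant and 421 FPKM in control epidermis (-0.52), Mcts2 differed by -0.61, Slc38a4 by 0.42, Cd81 by -0.72 and Dhcr7 by 0.79.

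Among 16 genes for Notch receptors, partners of Dlk1 and adipocyte differentiation, 2 rose and 5 fell in E16.5 skin, against 7 higher and 1 lower by the q of the authors' deposited table. Hes1, a Notch target, rose, with 122 FPKM in Cyp26b1-/- skin and 47.0 FPKM in WT skin (0.93), and the adipokine genes Adipoq (38.8 FPKM in Cyp26b1-/- skin, 47.3 FPKM in WT skin, -0.71) and Cfd (3.77 FPKM in Cyp26b1-/- skin, 7.32 FPKM in WT skin, -1.23) fell. In dermis 2 were 2-fold higher and 9 lower, with a median of -1.38, while Dlk1 was higher by 0.48. Hes1 had 33.5 FPKM in mutant and 80.2 FPKM in control dermis (-1.36). Cfd had 0.66 FPKM in mutant and 61.9 FPKM in control dermis (-5.36), the lipid droplet gene Plin1 had 5.28 FPKM in mutant and 95.7 FPKM in control dermis (-4.07), and Adipoq had 3.50 FPKM in mutant and 59.5 FPKM in control dermis (-3.87). The 2 that were higher are also adipocyte genes. Fabp4, a fatty acid binding protein gene, had 316.5 FPKM in mutant and 73.2 FPKM in control dermis (1.98), and Pparg, the adipocyte transcription factor gene, had 12.3 FPKM in mutant and 4.22 FPKM in control dermis (1.23). In epidermis 1 was 2-fold higher and 2 lower. Notch3 had 95.8 FPKM in mutant and 52.4 FPKM in control epidermis (1.04), the Dlk1 homologue Dlk2 had 1.44 FPKM in mutant and 5.68 FPKM in control epidermis (-1.27), and Sox9 differed by -0.96.

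Of 7 other cyclin-dependent kinase inhibitors, 0 rose and 2 fell in E16.5 skin (0 and 5 at an unadjusted p under 0.05, and 0 and 0 by the authors' q), with Cdkn2b at 10 FPKM in Cyp26b1-/- skin and 11.5 FPKM in WT skin (-0.61) and Cdkn2c and Cdkn2d not called at -0.41 each. In dermis 3 were 2-fold lower, Cdkn2b (0.94 FPKM in mutant, 8.13 FPKM in control, -2.36), Cdkn1a (54.5 FPKM in mutant, 109 FPKM in control, -1.11) and Cdkn1b (24.8 FPKM in mutant, 50.1 FPKM in control, -1.11), while Cdkn1c differed by -0.08. In epidermis none of 6 passed 2-fold, with Cdkn1a at 0.58, Cdkn2d at 0.37 and Cdkn1b at 0.29. Of 20 proliferation genes, 0 rose and 1 fell in E16.5 skin (1 and 1 unadjusted, 16 and 0 by the authors' q), with Ccnd2, Pcna and Mki67 uncalled at 0.34, 0.32 and 0.26. In dermis 5 were 2-fold higher and 0 lower, led by Ccne1 (1.72), Cdk1 (1.65) and Mcm6 (1.44). The median of the 20 there was 0.01, near the median gene, and the lowest was Aurkb at -0.68. In epidermis 3 of 18 were 2-fold lower, Ccnd2 (-1.5), Ccnd1 (-1.47) and Pcna (-1.05), with a median of -0.70. Of 10 listed genes for imprint maintenance and related factors, 6 were tested in E16.5 skin. Of these, 0 rose and 0 fell (0 and 0 unadjusted, 4 and 0 by the authors' q), with Ctcf at 0.13, Trim28 at 0.11 and Dnmt3a at -0.06. Dnmt1 and Uhrf1 of that list had no usable value in E16.5 skin and were not tested, and Dnmt1 had none in dermis. Zfp57, which encodes the factor of the hexamer shown above, had 13.4 FPKM in mutant and 4.01 FPKM in control dermis (1.40), with Trim28 at 0.51 and Ctcf at -0.47. In epidermis the largest differences in that list were Uhrf1 (-0.89), Dnmt1 (0.38) and Dnmt3a (-0.38).

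Across the 6 group values, the genes with the log2(FPKM + 1) profile closest to that of Dlk1 among 12073 genes were Acsf2 (Pearson r = 0.999), Spon1 (0.999) and Sh2d3c (0.999), given as a description. Among members, Meg3 had r = 0.998 with Dlk1, Cdkn1c 0.990, H19 0.953, Mest 0.939, Grb10 0.913, Peg3 0.896, Plagl1 0.744 and Peg10 0.714. The points share libraries and the low values of epidermis, which dominate such a correlation. Dlk1 had 486 FPKM in Cyp26b1-/- skin and 411 FPKM in WT skin, against which its epidermal values are far lower, and the tables were normalised separately. No profile could be formed for Igf2, which lacks E16.5 values.

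Further marker lists were read for the same libraries. In E16.5 skin lens markers had a median difference of 6.55, with summed levels of 1822 FPKM in Cyp26b1-/- skin and 63.7 FPKM in WT skin, and cartilage and bone markers summed to 231 FPKM in Cyp26b1-/- skin and 74.9 FPKM in WT skin. That sum rests on the bone genes Bglap (110.6 FPKM in Cyp26b1-/- skin, 8.30 FPKM in WT skin) and Ibsp (59.7 FPKM in Cyp26b1-/- skin, 28.4 FPKM in WT skin), and the list's median was 0.15, with 1 of 10 genes 2-fold higher. Medians in E16.5 skin were -0.19 for fibroblast, -0.17 for keratinocyte, -0.19 for muscle, -0.64 for adipocyte, -0.03 for endothelial, 0.49 for erythroid, -0.09 for macrophage, 0.04 for Schwann cell and -0.42 for melanocyte markers. Their part in the members' differences was not tested.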

How the data were processed

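RNA sequencing of embryonic mouse skin was analysed from 8 libraries. The RNA was isolated with Trizol and prepared with the TruSeq kit, per the labels' protocols. Per the submitters' processing notes, build mm9 was used with Cuffdiff 1.3.0, Cufflinks, TopHat 1.3.2 and Bowtie 0.12.7.0, with no roles named. The authors deposited FPKM per RefSeq transcript for each group, with a p-value, a q-value and 2 scores, the log2 fold and its statistic, per the file headers. The E16.5 FPKM pool 2 libraries per group, and E18.5 groups have 1 library, so precision between animals is unknown.

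FPKM were summed per symbol over rows whose status was not HIDATA, FAIL or LOWDATA. Folds used a pseudocount of 1 FPKM, and genes below 1 FPKM in both groups were left out. At E16.5 the deposited statistic was recomputed after subtracting the median deposited fold (0.475 over 19608 tested transcripts), its SE being the fold divided by the statistic, with Benjamini-Hochberg adjustment at 0.05. The SE is the one implied by the deposited table, not one measured between animals. A gene was called when at least 1 transcript passed in a direction and none in the other. E18.5 counts used a 2-fold difference. The members, 7 related lists, 11 marker lists and the tests were chosen with earlier results of these data known. Named were all members, Igf1 and its receptors, and from each related list up to 3 genes with the largest difference in each table and at least 5 FPKM. Copg2, Zim1, Phlda2, Fabp4, Pparg, Igf2bp2, Bglap, Ibsp, Col1a1, Krt5, Krt14 and second mentions were named after values were seen. The labels leave unsaid whether the E16.5 libraries are from different embryos, so their p-values may measure technical spread. The code was tested on simulated data. Python 3.11.15, pandas 2.3.3 and scipy 1.17.1 were used. Alternatives were other pseudocounts, filters, centrings, thresholds and transcript choices.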

Additional observations from a re-analysis of the deposited data

Results flagged for a closer look

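Members were compared between the E18.5 tissues where they reached 1 FPKM in the mutant or the control of each. Relative to the median gene, 4 differed in opposite directions in dermis and epidermis, which marked them for a closer look. Dlk1 differed by 0.48 in dermis and by -1.74 in epidermis. Meg3 differed by 0.88 in dermis and by -1.41 in epidermis. Mest differed by 1.62 in dermis and by -0.84 in epidermis, and Grb10 by 1.17 in dermis and by -0.32 in epidermis. In epidermis Mest had 0.73 FPKM in the mutant and 2.50 FPKM in the control. Grb10 had 0.51 FPKM in the mutant and 1.13 FPKM in the control there. Both thus passed the filter only through the control, a choice that fixes a lower level in the mutant, so their epidermal direction carries little weight. Each tissue had 1 mutant and 1 control library, so the difference between the tissues was not tested. The labels give different sample numbers for dermis and epidermis, so tissue and sample cannot be told apart. Dermal fibroblast markers had a median of 0.96 in dermis and -1.5 in epidermis, and their part in these differences was not tested. Relative to those medians the differences were -0.47 in dermis and -0.24 in epidermis for Dlk1, -0.08 and 0.09 for Meg3, 0.66 and 0.66 for Mest, and 0.21 and 1.18 for Grb10. Those medians rest on unlike marker sets. Col1a1 (-2.20), Col1a2 (-2.16) and Col3a1 (-2.18) count in epidermis alone, and Lum and Pdgfra in dermis alone. Values on this scale are therefore not like for like between the tissues, and the sign of Meg3, near 0, may depend on the set.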

How the results depend on the processing

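No paired analysis was possible because the E16.5 values pool both libraries of a group and each E18.5 group has 1 library, and leaving out a replicate was not possible for the same reason. In E16.5 skin the count of members called higher, 1 as reported, was 8 by the authors' q, and 0 at an adjusted p of 0.01, with the most abundant transcript alone or with centring over transcripts of at least 10 FPKM. The count called lower, 0 as reported, was 1 at an adjusted p of 0.01 (Dlk1) and 1 with that centring. The median member difference in E16.5 skin, 0.13, was 0.24 with no filter on low values, 0.56 with no centring and 0.32 relative to the median fibroblast marker. In dermis the median of 0.74 was 0.86 with no centring and -0.21 relative to that marker. The counts in dermis, 2 higher and 1 lower, were 0 and 3 relative to that marker, and 6 were higher at a 1.5-fold threshold, which 26.6% of all genes passed. In epidermis the median of -0.37 was -0.81 with a pseudocount of 0.1, -0.25 with a pseudocount of 5, -0.55 with no centring, -0.52 with centring over genes of at least 10 FPKM, -0.79 with the most abundant transcript and 1.13 relative to the marker. The counts in epidermis, 0 higher and 3 lower, were 5 and 0 relative to that marker, under which Meg3 was at 0.09 where it was -1.41 as reported. Peg3 in epidermis was -0.72 with a pseudocount of 5. Of the single member differences under these alternatives, 161 kept a 2-fold difference or moved by under 0.1, and 74 moved by more. A further 7 passed the 2-fold threshold with the sign kept, and 5 lost a 2-fold difference. The 74 include Plagl1 (1.40), Grb10 (1.18) and Cdkn1c (1.13) in epidermis, which passed 2-fold with the sign turned relative to the median fibroblast marker. The sign changed in 19, of which 11 were relative to the median fibroblast marker, 5 with no centring and 1 was of a difference past 2-fold as reported, Meg3 in epidermis. Of the related lists' medians and counts, 433 were within 0.1 or 1.5 times and 176 moved. In dermis, relative to that marker, list medians were -0.41 and -0.47 for the paternally and maternally expressed genes, -0.94 for proliferation genes and -0.89 for imprint maintenance. For the causes, the scale against fibroblast markers differs by construction by their median, and the others were not tested.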
